A study of Mus musculus with 6 samples.

Results

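Of 177443 autosomal regions measured in all 6 libraries of mouse colon epithelium, 922 (0.52%) were less methylated in both AOM/DSS libraries than in every control and curcumin library, by at least 8 percentage points. These regions were chosen by their measured levels: the higher of the 2 AOM/DSS levels had to lie 8 or more points under the lowest of the other 4. The comparisons of AOM/DSS with control and with curcumin at these regions are therefore descriptions of how they were selected and carry no test. The libraries came from C57BL/6 mice aged 18 weeks, with 2 libraries in each of 3 groups. Control mice form the first group. The second was given the carcinogen azoxymethane together with dextran sulfate sodium, which causes colitis (AOM/DSS), and the third had curcumin, the yellow polyphenol of turmeric, in addition. All 3 groups share the strain, the age and the tissue, and none received curcumin alone. Per the labels, tumors had been removed by the time epithelial cells were collected by scraping, so the values describe the tissue that was left. The labels do not say whether the 2 libraries of a group came from separate mice, so the spread between them may be partly technical. Nor do they give doses or times of treatment.

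In mammals most CpG sites carry a methyl group on the cytosine. Dnmt1 copies this mark onto the new strand when DNA is replicated, Dnmt3a and Dnmt3b set it on unmethylated DNA, and Tet enzymes start its removal. CpG-dense islands at promoters are usually free of it, while sparse CpGs elsewhere are mostly methylated, with dips at enhancers and other bound elements. Loss of methylation over the CpG-sparse genome is a long-known feature of colon tumors. Levels below are percentages: methylated calls over all calls at the CpGs of a region. In bulk tissue a lower level can mean fewer methylated copies in every cell or more cells of a type that lacks the mark, and these cannot be told apart here.

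The 6 libraries held 24682973 to 30727568 calls, with a median of 96 to 119 calls per autosomal region. Over all autosomal regions the mean level was 41.3% ± 0.202 (SD, n = 2) in control, 40.4% ± 0.197 in AOM/DSS and 40.9% ± 0.139 with curcumin. Coordinates are those of the deposited files, in build mm9, and it is not known whether starts are 0-based or 1-based, so positions may be off by 1 base. Regions were not tied to genes and no sequence was read, because no genome or annotation of mm9 was used here. For the same reason the epithelial label was not checked against marker genes.

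The rule was applied in the same way to each of the other 14 choices of 2 libraries, and none of them gave as many regions. The AOM/DSS pair had 922, and the others had 208 to 422 with a median of 322. The next highest was AOM/DSS replicate 0 with curcumin replicate 1, so the AOM/DSS count was 2.18 times the highest of the rest. The 2 controls together gave 247 regions and the 2 curcumin libraries together 264. With a limit of 15 points the AOM/DSS pair had 77 regions and the others 14 to 41, and with 20 points it had 18 against 0 to 6. A single large gap was not particular to AOM/DSS: the largest was 32.9 points there and 34.04 points for control replicate 0 with AOM/DSS replicate 1. In the opposite direction, 269 regions were at least 8 points higher in both AOM/DSS libraries than in the other 4, and the other choices had 163 to 579.

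Part of this count moved with the general shift of the AOM/DSS libraries. Regions averaging 70 to 90% over the 6 libraries were lower in AOM/DSS than in control by a mean of -2.56 points. Quantile normalization, which gives all libraries the same distribution of levels and was added after the data were seen, brought that difference to -0.0793 points. After it 538 regions passed the rule for AOM/DSS, of which 525 were among the 922, while the other choices gave 257 to 430. The remaining 397 regions no longer reached 8 points, although all 922 still had both AOM/DSS libraries below the other 4. Depth moved the contrast the other way. Among regions with at least 100 calls in each library, the AOM/DSS pair had 153 and the others 13 to 43. With both settings together it had 75 and the others 13 to 48.

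**Figure D1:**
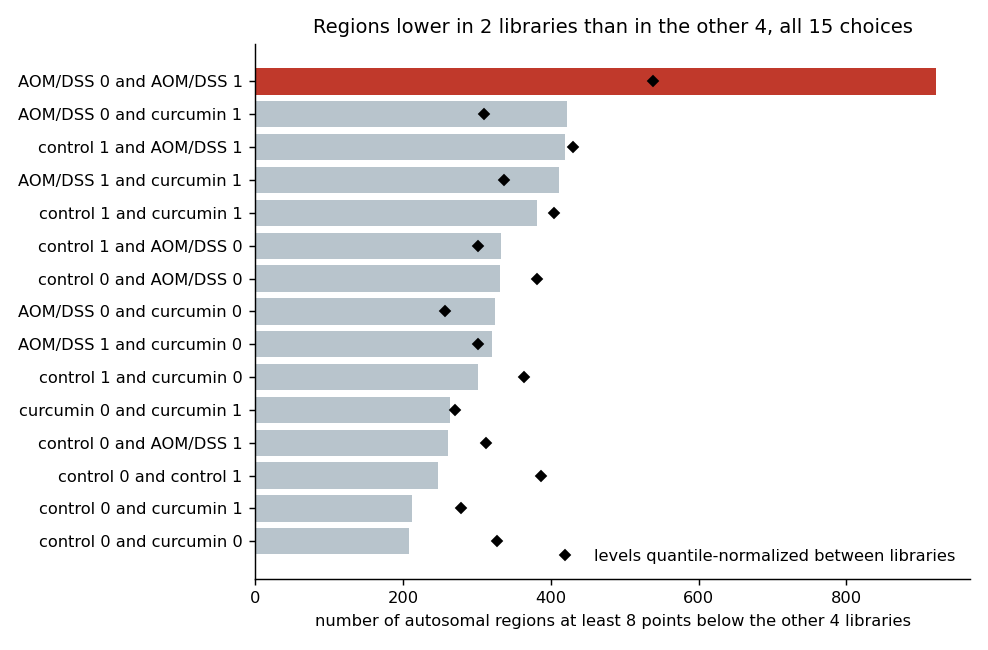
Number of autosomal regions (x axis) at least 8 points below the other 4 libraries, for each of the 15 choices of 2 libraries (y axis, library numbers are replicates). Bars use levels as measured, with the AOM/DSS pair in red at 922, and diamonds use quantile-normalized levels, where the AOM/DSS pair stands at 538 and the next choice at 430.

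The gap between the AOM/DSS libraries and the rest was widest at chr19:21892566-21892986, a region with 12 CpGs. It stood at 83.3% and 84.7% in control, at 40.4% and 33.3% in AOM/DSS and at 76.99% and 73.3% with curcumin, on 225 to 318 calls per library. Both curcumin libraries lay below both controls and far above both AOM/DSS libraries. The second widest gap, at chr14:76207986-76208080, rested on 23 to 53 calls over 4 CpGs. Its levels were 60.4% and 65.8% in control, 29.4% and 21.7% in AOM/DSS and 79.5% and 69.7% with curcumin, so here curcumin lay above control. Next came chr2:75469609-75469690, with 4 CpGs and 38 to 59 calls. Its control levels were 55.1% and 56.9%, its AOM/DSS levels 22.0% and 18.9%, and its curcumin levels 50% and 52.6%. Replicates of each group lay within a few points of each other at that region.

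Regions on chromosomes 15 and 14 were also among the widest. At chr15:11937953-11938067 control had 75% and 74.4%, AOM/DSS 42.9% and 47.1%, and curcumin 90.9% and 86.7%. At chr15:78502871-78503062, with 12 CpGs and 26 to 51 calls, control had 44.0% and 51.7%, AOM/DSS 18.2% and 15.4%, and curcumin 47.1% and 44.4%. In the first of these curcumin was above control, and in the second the curcumin libraries lay within the range of the controls. The region chr14:32483017-32483176 had deeper coverage, with 101 to 166 calls over 5 CpGs. It stood at 78.7% and 83.9% in control, 48.8% and 39.3% in AOM/DSS and 75.8% and 73.3% with curcumin, again with curcumin just below control.

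The remaining 6 of the 12 widest gaps lay between 22.8 and 25.4 points. At chr11:58029396-58029570, with 96 to 152 calls over 5 CpGs, control had 64.2% and 47.7%, AOM/DSS 23.7% and 18.2%, and curcumin 53.7% and 49.0%. The 2 controls were far apart there, and both curcumin libraries lay between them. At chr3:31585419-31585481 control had 75.9% and 76.9%, AOM/DSS 30.6% and 33.3%, and curcumin 70% and 56.5%, on 23 to 40 calls. Curcumin replicate 1 thus stood closer to the AOM/DSS level than replicate 0 did. Among the 12, chr11:102086097-102086295 reached the lowest single level, 10.2% in AOM/DSS replicate 0 beside 22.6% in replicate 1, against 50.9% and 54.5% in control and 45.5% and 52.2% with curcumin. The 3 others, chr5:60219697-60219831, chr11:118102316-118102413 and chr11:33901764-33901842, have 3 or 4 CpGs. Their control means were 53.8%, 91.5% and 60.8%, their AOM/DSS means 24.9%, 64.4% and 35.5%, and their curcumin means 54.6%, 89.97% and 63.3%, in that order. In these 3 the curcumin mean was within 3 points of control, and the AOM/DSS mean was over 25 points below it. Across the 12, AOM/DSS was below control by 25.3 to 47.1 points, and the curcumin mean was below the control mean in 8. In 9 of them at least 1 library had under 50 calls, so that a level there moves by more than 2 points with each call.

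**Figure D2:**
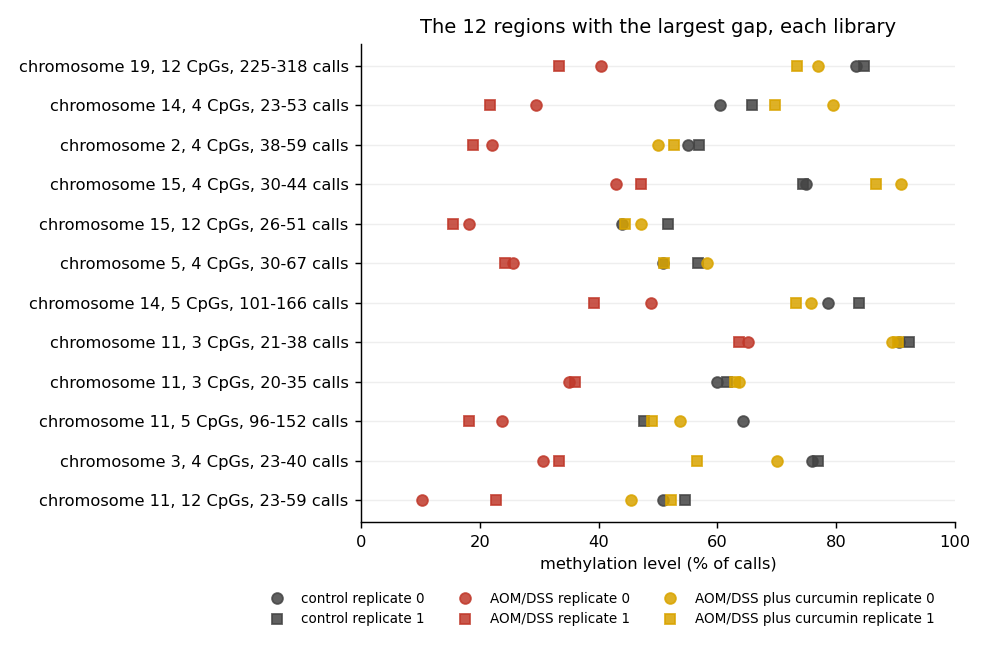
Methylation level in percent of calls (x axis) in each of the 6 libraries for the 12 regions with the widest gap (y axis, with CpG number and the range of calls over libraries). Red points (AOM/DSS) lie to the left of all gray (control) and yellow (curcumin) points in each row, which the rule requires, while the order of gray and yellow differs between rows.

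A test across all 179922 regions with a value in every library, edgeR's quasi-likelihood test on methylated and unmethylated calls, called 3 of the 922 as lower in AOM/DSS than in control (Benjamini-Hochberg adjusted p under 0.05 and at least 10 points; 0.00278% of all regions tested were called lower). The rule used this contrast, so nothing is read from the count, from the p-values of single regions or from how they hold between fits, which are given as descriptions. They are the chromosome 19 region (84.0% ± 0.999 against 36.9% ± 5.005, SD, n = 2; edgeR adjusted p = 0.000285), chr17:35338139-35338267 and chr10:17403808-17403883. In 6 fits that each left out 1 library, the first was called in 6. The chromosome 17 region was called in 0 (edgeR adjusted p from 0.0558 to 0.757) and the chromosome 10 region in 1 of these fits. At an unadjusted edgeR p under 0.05 and 10 points, 634 of the 922 were lower in AOM/DSS than in control (2.1% of all regions) and 530 were higher with curcumin than in AOM/DSS (1.29% of all). None of the 922 passed the adjusted threshold between curcumin and AOM/DSS (0% of all regions), and the smallest edgeR adjusted p was 0.0579, at the chromosome 19 region.

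The regions called on chromosomes 17 and 10 had intermediate levels with curcumin. At chr17:35338139-35338267, with 5 CpGs and 65 to 96 calls, the levels were 54.3% and 60% in control, 13.5% and 8.33% in AOM/DSS and 44.7% and 28.8% with curcumin. The curcumin mean was 20.4 points below the control mean (-20.4), which is the largest such shortfall among the 922. The curcumin replicates were far apart, and both lay between the other groups. At chr10:17403808-17403883, with 4 CpGs and 181 to 284 calls, control had 47.1% and 57.6%, AOM/DSS 18.7% and 12.9%, and curcumin 40.4% and 30.4%. Here as well both curcumin libraries lay between AOM/DSS and control. The region next to the chromosome 17 one, chr17:35338382-35338812 with 16 CpGs, had 53.0% and 58.4% in control, 28.2% and 14.5% in AOM/DSS and 50.4% and 35.7% with curcumin. Its gap, 7.42 points, fell just short of the rule. On the other side, chr17:35337598-35337831 had 77.1% and 69.5% in control, 49% and 26.4% in AOM/DSS and 59.6% and 47.6% with curcumin. There curcumin replicate 1 lay below AOM/DSS replicate 0, so those groups overlapped. A further member, chr17:35335967-35336431, lies 1708 bases away and was picked for mention after its values were seen: control had 48.5% and 57.5%, AOM/DSS 34.5% and 38.6%, and curcumin 47.3% and 49.4%.

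Of the 922, 512 (55.5%) had another captured region of any kind within 1000 bases, against 71.0% of all regions. Only these 512 could have another member so near. Another member lay within 1000 bases of 10 of the 922 (1.08%), in 5 pairs, all of which are described since none is longer than another. For the other 14 choices of libraries this share was 0% to 1.57%, so it was not higher here than for every other pair of libraries. In the chromosome 19 pair the second region, chr19:21893122-21893376 with 7 CpGs, stood at 97.6% and 94.3% in control, 76.9% and 68.0% in AOM/DSS, and 90.1% and 90.5% with curcumin. On the other side, chr19:21892333-21892451 was no member: control had 97.9% and 95.2%, AOM/DSS 76.4% and 81.2%, and curcumin 85.4% and 75.7%, so that curcumin overlapped with AOM/DSS. The pattern of the wide central region was thus only partly shared by the neighbor that is no member. The other neighbor is a member, so the rule required its pattern. Next to others of the 12 widest gaps, neighbors that are no members went either way. AOM/DSS means exceeded control means at, for example, chr15:11937631-11937840 (50.5% against 46.1%) and chr11:33902311-33902775 (21.8% against 17.6%). They fell short at, for example, chr15:78503670-78503941 (69.6% against 83.9%) and chr14:32483426-32483509 (88.6% against 95.1%).

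On chromosome 4, chr4:98103347-98103662 (7 CpGs) had the most calls of the paired regions, 367 to 446. It stood at 41.4% and 40.8% in control, 24.2% and 13.5% in AOM/DSS and 43.7% and 34.6% with curcumin. Its partner chr4:98103918-98104066 (6 CpGs) stood at 66.2% and 53.7%, 38.0% and 28.7%, and 61.9% and 51.9%, in the same order. At both, AOM/DSS replicate 1 was the lowest library and curcumin replicate 0 was near or within the controls. In the pair on chromosome 15 the first region, chr15:80972642-80972787, had 66.3% and 71.8% in control, 46.7% and 49.0% in AOM/DSS and 64.4% and 60% with curcumin. The second, chr15:80972909-80973136, had 86.2% and 89.7%, 74.1% and 76.4%, and 91.1% and 93.5%. With curcumin the first was below control and the second above it. The pair on chromosome 11 (chr11:79436327-79436402 and chr11:79436628-79436829) had control means of 96.1% and 68.0%, AOM/DSS means of 80.1% and 53.96% and curcumin means of 96.5% and 68.4%. The pair on chromosome 6 (chr6:98225461-98225675 and chr6:98225750-98226019) had control means of 89.5% and 74.9%, AOM/DSS means of 72.7% and 61.3% and curcumin means of 88.6% and 78.9%. In these last pairs curcumin lay within 5 points of control at each region.

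The members with the most CpGs show the pattern in CpG-dense sequence. With 31 CpGs and 185 to 257 calls, chr15:79659100-79659499 had 51.8% and 40.1% in control, 25.9% and 26.3% in AOM/DSS and 53.5% and 41.7% with curcumin. Each of the control and curcumin pairs was over 10 points apart, while the AOM/DSS libraries were nearly equal. At chr17:71011914-71012187 (24 CpGs) control had 83.9% and 96.4%, AOM/DSS 65.2% and 61.8%, and curcumin 79.6% and 78.8%, which placed both curcumin libraries below both controls. At chr7:150481726-150482098 (20 CpGs) control had 79.6% and 83.0%, AOM/DSS 68.5% and 57.5%, and curcumin 85.7% and 82.4%. Next in CpG number were chr17:47839951-47840421 (19 CpGs) and chr7:52496530-52497014 (18 CpGs), with control means of 76.3% and 60.1%, AOM/DSS means of 64.5% and 43.1% and curcumin means of 76.5% and 54.4%. Curcumin equaled control at the former and stood between the groups at the latter.

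At the other end are members with little methylation in any group. The lowest control mean belonged to chr5:92761459-92761571, with 11.8% and 18.3% in control, 1.92% and 3.75% in AOM/DSS and 13.0% and 12.1% with curcumin. At chr6:72499178-72499602, which has 11 CpGs and 134 to 173 calls, control had 17.9% and 20.8%, AOM/DSS 8.77% and 7.74%, and curcumin 18.7% and 18.7%. In these 2 regions each AOM/DSS library was below 50% of the control mean. The 3 remaining regions of this kind, chr13:83864500-83864604, chr7:108530800-108530915 and chr13:55113744-55113982, had control means of 18.1% to 20.04%. Their AOM/DSS means were 6.59%, 6.38% and 5.46%, and their curcumin means 21.8%, 20.6% and 15.4%. Over all 922, the AOM/DSS mean was at most 50% of the control mean in 79 regions (8.57%, against 5.33% of all regions). It was under 10% in 15 (1.63%, against 35.6% of all regions).

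The limit of 8 points cuts through a continuous range. Just inside it, with gaps of at most 8.01 points, were chr16:46183188-46183225, chr2:164348326-164348508 and chr1:74946796-74947106. Their higher AOM/DSS levels were 50%, 63.7% and 12.3%, and the lowest of the other libraries were at 58.0%, 71.7% and 20.3%. Just outside, at 7.99 points, were chr7:36694069-36694257, chr14:48767412-48767595 and chr10:84170836-84170875. There the higher AOM/DSS levels were 23.3%, 77.2% and 70.3% against 31.2%, 85.2% and 78.3%. Of the 922, 467 had gaps under 10 points and 77 had 15 points or more, and the median gap was 9.95 points.

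The 922 were mostly methylated regions with few CpGs. By the mean of the 4 control and curcumin libraries, 386 stood at 70 to 90%, 261 at 50 to 70%, 144 at 30 to 50%, 105 at 90% or more and 26 at 10 to 30%. None stood under 10%, where a gap of 8 points is hardly possible and where 36.5% of all regions lie. As a share of all regions of a class, members were most frequent at 50 to 70% (1.34%) and 70 to 90% (1.12%). The median number of CpGs was 4, against 7 over all regions, and 54.2% had 3 or 4 CpGs against 30.9%. From 0.977% of the regions with 3 CpGs, the share of members decreased to 0.0132% of those with 20 or more. Mean calls per library had a median of 65.8 in members and 107.8 over all regions, while calls per CpG were alike at 14.8 and 14.9. A CpG-dense unmethylated region (at least 20 CpGs and under 10%) lay within 2000 bases of 88 members (9.54%), against 27.4% of all regions. Regions under 10%, where no member lies, make up much of that background, since 51.6% of them have one so near. At equal levels the shares were closer: 16.0% of members and 17.04% of all regions at 30 to 50%, 10.7% and 13.3% at 50 to 70%, and 6.74% and 9.27% at 70 to 90%. At 90% or more they were 2.86% and 6.73%, and at 10 to 30% the order was reversed, with 30.8% of members and 24.9% of all regions.

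Regions found by the same rule in the other 14 choices also had a median of 4 CpGs in every choice, and 52.1% to 60.4% of them had 3 or 4 CpGs. Their mean calls had medians of 48.5 to 59.8, below the 65.8 of the AOM/DSS regions. Between 7.28% and 19.4% of them lay within 2000 bases of a CpG-dense unmethylated region, a range that holds the 9.54% seen here. The level of the 4 higher libraries had a median of 71.3% in the AOM/DSS regions, above the 56.6% to 69.4% of the other choices. No test was made of these differences.

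**Figure D3:**
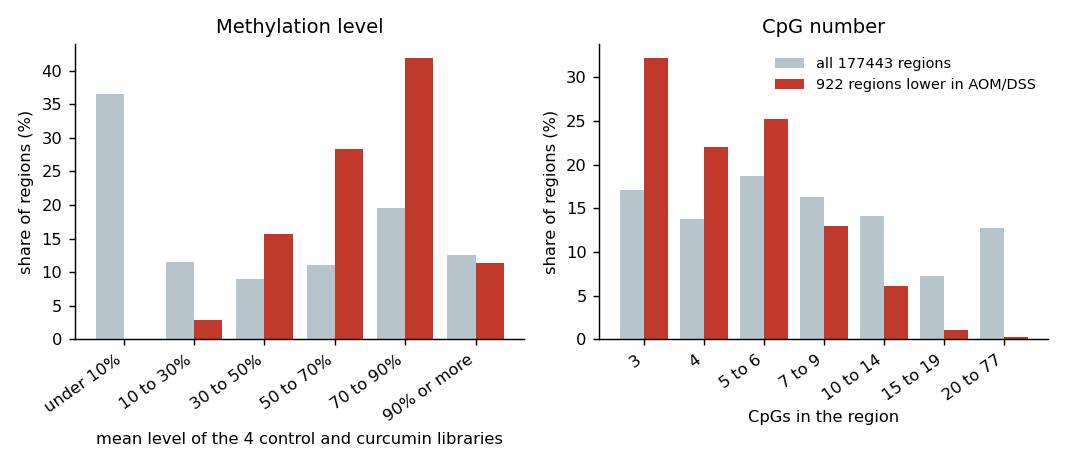
Share of regions in percent (y axes) by mean level of the 4 control and curcumin libraries (left) and by number of CpGs (right), for all 177443 autosomal regions in gray and the 922 members in red. Members are most frequent at 70 to 90% and at 3 CpGs, and none lies under 10%.

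Members were spread over all 19 autosomes. They made up from 0.340% of the regions on chromosome 8 to 0.661% of those on chromosome 3. On each of the 19 autosomes the AOM/DSS pair had more such regions than any of the other 14 choices: 80 against at most 38 on chromosome 11, 77 against at most 38 on chromosome 2 and 56 against at most 22 on chromosome 3. Chromosome 18 held 29 members, which are counted but not described singly. On chromosome X, which the rule leaves out, 8 of 2443 regions met it for the AOM/DSS pair and 2 to 9 for the other choices, so the AOM/DSS pair did not lead there.

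The rule sets no difference between curcumin and control, but it used the levels of both. Each had to lie at least 8 points above the higher AOM/DSS level. Their contrast is thus a description of selected levels, and the permutation test below does not allow for that selection. Over the 922 regions the mean level was 69.1% ± 0.408 (SD, n = 2) in control (68.8% and 69.4%) and 67.8% ± 0.0359 with curcumin (67.7% and 67.8%), with AOM/DSS at 51.03% and 50.6%. Both curcumin libraries were below both controls, by a mean difference of -1.35 points, against -0.419 points over all autosomal regions. This order is not particular to the members: over all autosomal regions curcumin had 40.99% and 40.8%, and control 41.5% and 41.2%. At the members an exact two-sided permutation test over the 4 libraries gave p = 0.333, the smallest it can give. With the 77 regions of 15 points or more the difference was -1.73 points. Among single regions the median difference was -1.20 points, and -0.169 points over all regions. At 30 to 50% it was -2.40 points in members and -0.936 points over all regions of that class, at 50 to 70% it was -1.44 and -1.02 points, and at 70 to 90% it was -0.969 and -0.637 points. At 90% or more it was -0.505 and -0.176 points. The 26 members at 10 to 30% went the other way, with -0.0295 points against -0.332 points over all regions of that class.

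Region by region, curcumin was within 5 points of control in 644 of the 922 (69.8%, against 77.4% of all regions). It was at least 10 points below control in 51 (5.53%, against 3.69% of all regions) and at least 10 points above it in 18 (1.95%, against 2.46%). Both curcumin libraries lay below both controls in 203 members, or 22.0%, where 17.7% of all regions did so. Both lay above both controls in 105, or 11.4%, against 14.3% of all regions. In edgeR's test of curcumin against control none of the 922 was called in either direction (0% of all regions), and every member's adjusted p was 1. At an unadjusted edgeR p under 0.05 and 10 points, 7 members were lower with curcumin (0.899% of all regions) and 1 was higher (0.562% of all regions). Both shares in members, 0.759% and 0.108%, are below the background, and a share near the background is no result about these regions.

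Regions beside the members, which the rule did not pick, also had lower mean levels in AOM/DSS, by much less, in a design too small for a test to pass. There were 853 regions that are no members within 1000 bases of one. Their mean level was 49.4% and 49.03% in control, 47.1% and 46.6% in AOM/DSS and 48.6% and 48.4% with curcumin. The 3 groups did not overlap, with control highest, curcumin next and AOM/DSS lowest. This order is not particular to neighbors. Over all autosomal regions that are no members, control had 41.3% and 41.02%, curcumin 40.9% and 40.7%, and AOM/DSS 40.2% and 40.5%. Beside members AOM/DSS differed from control by -2.33 points, and curcumin from AOM/DSS by 1.62 points. An exact two-sided permutation test over libraries gave p = 0.333 for each, the smallest possible with 2 against 2. Regions of the same levels that are no members differed by -1.14 and 0.631 points on average, in the same directions and by less. The median difference between AOM/DSS and control was smaller than the mean, at -1.36 points, against -0.249 points over all regions that are no members. Beside members with gaps of 15 points or more, 74 such regions had a mean of -3.06 points but a median of -0.259 points. Both AOM/DSS libraries were below all 4 others, by any margin, at 115 of the 853 (13.5%), against 8.76% of all regions that are no members.

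The difference was largest close to the members. Within 300 bases, where a read can cover both a member and its neighbor, 378 regions differed by -2.85 points between AOM/DSS and control, against -1.34 points for their levels. At over 300 to 1000 bases it was -1.91 points in 475 regions, against -0.993 points. At over 1000 to 2000 bases it was -1.42 points against -0.730 points, and at over 2000 to 5000 bases -1.25 against -0.836 points. From 5000 to 10000 bases the values were -0.916 and -0.861 points, and beyond that to 50000 bases -0.905 and -0.832 points, nearly equal. Among neighbors within 1000 bases, those at 50 to 70% differed by -4.04 points (all regions of that class -2.38 points) and those at 70 to 90% by -3.58 points (all -2.41 points). Those under 10% differed by 0.0620 points (all 0.420 points). At 50 to 70% curcumin was 3.01 points above AOM/DSS (all regions of that class that are no members 1.37 points). It was 1.03 points below control (-1.03), nearly the same as in all of that class (-1.01 points).

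**Figure D4:**
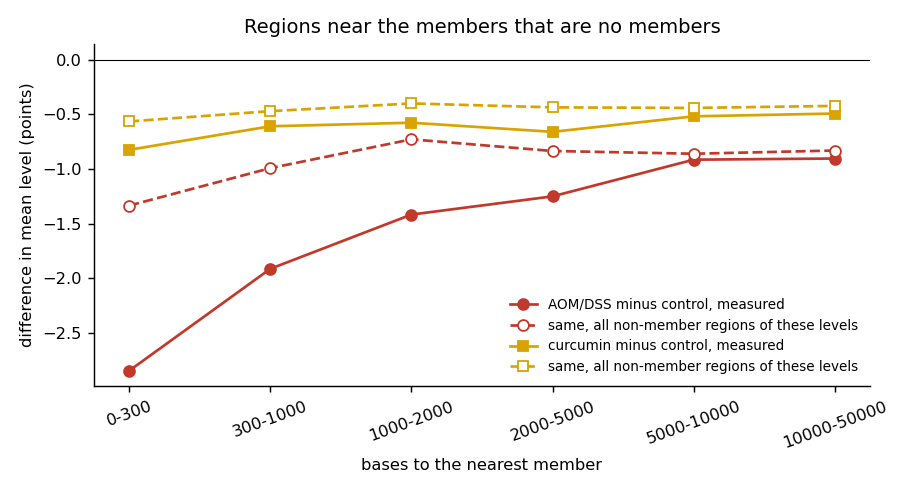
Difference in mean level in percentage points (y axis) for regions that are no members, by distance to the nearest member in bases (x axis, bins of unequal width). Filled red circles are AOM/DSS minus control and filled yellow squares curcumin minus control, and open symbols give the same difference for all regions of those levels that are no members; the red lines are furthest apart at up to 300 bases (-2.85 and -1.34 points) and nearly meet beyond 5000 bases (-0.916 and -0.861 points).

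To measure the change in libraries that took no part in the choice, regions were chosen with 1 library of each group and read in the other 3. With replicate 0 of each group, 10603 regions had an AOM/DSS level at least 8 points below the control and the curcumin level. In the unused replicate 1 libraries the median difference at these regions was -3.47 points between AOM/DSS and control and 2.09 points between curcumin and AOM/DSS. The first is the largest median loss among the 8 possible choices, which ranged from -3.47 to -2.71 points. For regions of the same levels the mean differences were -1.65 and 0.991 points, against means of -3.57 and 2.13 points at the chosen regions. The unused AOM/DSS library was the lowest of the 3 in 46.3% of them, against 33.8% of all autosomal regions and 40.1% of regions of the same levels. It was again at least 8 points below the other 2 in 16.7% of them, against 6.05% of all. This last share was not set against regions of the same levels or depth. Of all regions 36.5% lie under 10%, where such a gap is hardly possible, so the contrast with all regions is partly one of level.

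The other choices of 1 library per group gave the same directions. Over all 8, 9894 to 11852 regions were chosen, and the mean difference in the unused libraries was -3.77 to -2.78 points between AOM/DSS and control, where regions of the same levels had -2.34 to -1.65 points. Between curcumin and AOM/DSS it was 1.84 to 2.73 points, against 0.951 to 1.51 points. Curcumin was below control in each, by a mean of -1.52 to -0.462 points, against -1.23 to -0.269 points. That difference did not exceed the one at the same levels in every choice. Chosen with AOM/DSS replicate 0, control replicate 1 and curcumin replicate 1, regions had -0.596 points against -0.868 points. With curcumin replicate 0 in its place the values were nearly equal, at -1.24 and -1.23 points. The unused AOM/DSS library was lowest in 43.9% to 48.2% of the chosen regions. For regions of the same levels this share was 40.1% to 43.2%, and over all autosomal regions 33.8% to 36.9%. The 8 choices share libraries and are not independent. All 922 members are among the regions chosen each time, and their mean difference between AOM/DSS and control, -18.3 points, comes from libraries that took part in choosing them.

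**Figure D5:**
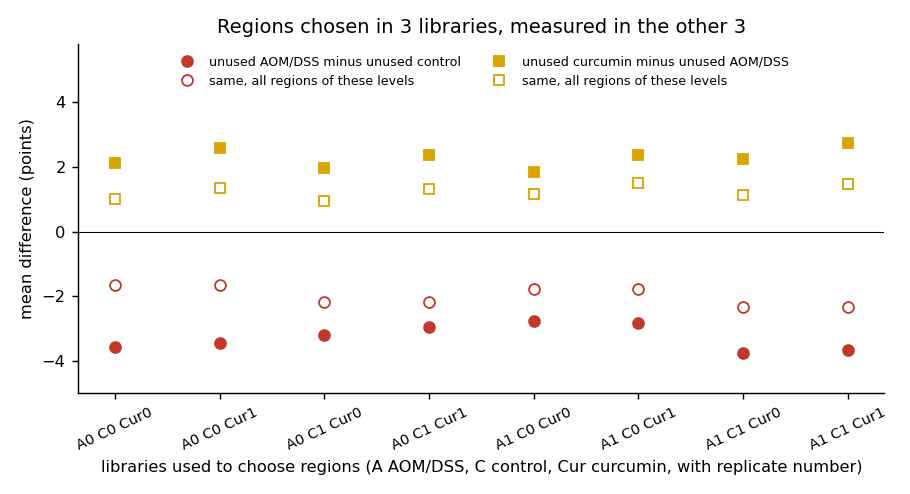
Mean difference in percentage points (y axis) in the 3 libraries not used for choosing, for the 8 choices of 1 library per group (x axis). Filled red circles are AOM/DSS minus control (-3.77 to -2.78 points) and filled yellow squares curcumin minus AOM/DSS (1.84 to 2.73 points), and open symbols give all regions of the same levels, which lie nearer to 0 in each choice.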

How the data were processed

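Per the labels, DNA of mouse colon epithelium was captured with Agilent's SureSelectXT Mouse Methyl-Seq kit and bisulfite sequenced. The deposited files give, for 209687 regions in each of 6 libraries, the number of CpGs and 2 counts: methylation calls, and methylated calls among them. The number of CpGs, which is no measurement, is another whole-number column, per the file headers. Bismark 0.15.0, ChIPseeker 1.10.3 and R 3.4.0 with build mm9 are named in the submitters' processing notes; the sources used here do not give their roles, how regions were drawn or whether duplicate reads were removed. No deposited value rests on fewer than 20 calls. Without molecular identifiers calls are not independent molecules, so no interval was drawn from calls.

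Levels are methylated calls over all calls. The 177443 autosomal regions with a value in all 6 libraries were used, and 179922 with the sex chromosomes and mitochondrial DNA in the fits across all regions. Those fits used edgeR 4.0.16 (quasi-likelihood, a term per library for coverage, all 6 libraries sharing 1 spread, Benjamini-Hochberg adjustment) in R 4.3.3, with limma 3.58.1 as an alternative on log2 ratios with 1 added to each count. Everything else used Python 3.11.15, numpy 2.4.6, pandas 2.3.3 and scipy 1.17.1. The main edgeR fit to all 6 libraries was tested on simulated data, and the alternative fits, limma among them, were not. Same-numbered libraries did not deviate together (r across 92497 regions of 0.0585, 0.0116 and 0.00587 for the 3 pairs of groups), so numbers were not taken as pairs.

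Regions named are the 12 with the widest gap, all in runs of members within 1000 bases (the 3 longest were asked for, and all 5 tie), the 5 with most CpGs, the 5 lowest in control, 3 on either side of the limit and those called by edgeR. Levels expected for neighbors and unused libraries are means over 6 level classes split at 10, 30, 50, 70 and 90%. The regions and the naming rule were chosen with earlier results of these data known. Planned gene lists and motif searches were not run, since they needed an mm9 annotation or genome.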

Additional observations from a re-analysis of the deposited data

How the results depend on the processing

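The count of 922 depends on its limits: it was 2594 with a margin of 5 points, 455 with 10, 77 with 15, 451 with at least 50 calls in each library, 153 with at least 100, 6873 with group means in place of extremes, 538 after quantile normalization and 75 with that and 100 calls, the last 2 chosen after seeing the data. Leaving out 1 library gave 1466 to 5435, as fewer conditions must be met, with the highest counts without AOM/DSS replicate 0 (5435) and replicate 1 (4475). The share of members near another was 0% at 15 points and 0.955% to 6.09% with 1 library left out, at 6.09% without AOM/DSS replicate 0, 3.69% without AOM/DSS replicate 1 and 2.24% without curcumin replicate 1. Between AOM/DSS and control edgeR called 3 members (0.00278% of all regions). It called 1 with 50 calls (0.000775%) and 1 with only the 4 libraries compared (0.000556%), in both the chromosome 19 region, and limma called 0. With 1 library left out 1 to 3 were called: 3 without control replicate 0, of which 2 are among the first 3 and 1 is chr17:71011914-71012187, and in each other case the chromosome 19 region alone. With the replicate block 16 were called, the first 3 among them, of 30 in all (0.0167%). Between curcumin and AOM/DSS, in place of 0, the chromosome 19 region was called with the replicate block, with only the 4 libraries compared and without either control, giving 1 member and 0.000556% of all regions each, while the other omissions gave 0. The cause of these changes was not tested. The differences at neighbors, in unused libraries and between curcumin and control kept their direction under all alternatives run. At neighbors and between curcumin and control, members were not chosen anew when a library was left out. Leaving out a library of the group not compared could not change the value there, so those omissions say nothing about stability. With 2 libraries a group, and a median of 65.8 calls per library at members, single regions are measured coarsely.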
